A study of Mus musculus with 36 samples.

Results

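The 9 genes described here encode enzymes of transsulfuration and of the making, recycling and breakdown of glutathione. Cbs and Cth turn homocysteine into cysteine. Gclc, Gclm and Gss build glutathione, Gsr returns its oxidised form to the reduced form, and Chac1, Chac2 and Ggct act in its breakdown. The genes were taken by symbol from the count table deposited by the authors, where each name matched 1 entry, and they are 9 of 36856 symbols. All 9 were among the 16065 genes that passed the filter on low counts, Cbs with 0 to 26 counts in a library.

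The libraries are bulk RNA-seq of mouse embryonic fibroblasts (MEF), cells grown from the connective tissue of mouse embryos. The genotype was WT or PERK -/-, and the treatment was DMSO (the solvent), Thapsigargin (Tg), BtdCPU, Halofuginone, BtdCPU + Thapsigargin or Halofuginone + Thapsigargin, with 3 libraries in each of the 12 groups. The labels give no dose, time, passage or batch and no second line of either genotype, so an effect of the deletion and a difference between cell lines cannot be told apart. They number the replicates without saying that these came from separate cultures, so p-values measure the spread between these libraries, which may be technical.

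Thapsigargin blocks the calcium pump of the endoplasmic reticulum and so activates the kinase PERK. BtdCPU is known as an activator of the kinase HRI, and halofuginone inhibits prolyl-tRNA synthetase and so activates the kinase GCN2. These kinases phosphorylate eIF2 alpha, which favours translation of the transcription factor ATF4. Glutathione is the main small thiol of the cell, made from glutamate, cysteine and glycine. Glutamate-cysteine ligase, a catalytic subunit (Gclc) with a modifier subunit (Gclm), sets the pace of its synthesis. CHAC1 and CHAC2 cleave reduced glutathione inside the cell, and CHAC1 is a known product of the ATF4 pathway. The factor NRF2 is known to raise Gclc, Gclm and Gsr, and both factors act on Slc7a11, the cystine carrier that supplies cysteine.

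The bases before the start of Chac1, Slc7a11 and Gclm are shown because Slc7a11 is among the 3 genes whose pattern was most like that of Chac1, and because Gclm and its partner subunit Gclc differed between the lines in opposite directions. Of the 9 genes, 6 had a window in the RefSeq promoter table (Chac1, Chac2, Ggct, Gclm, Gss and Cbs), which runs from 250 bases before to 50 bases after the start in build GRCm38.p6. Both strands were searched for TGATGNAA (the core of a C/EBP-ATF composite element), TGACGTCA (a cAMP response element) and TGACNNNGC (the core of an antioxidant response element). Capitals mark a match, and each sequence gives the 250 bases before the start, 5′ to 3′ on the gene's strand.
Chac1, chr2:119350992-119351241, plus strand: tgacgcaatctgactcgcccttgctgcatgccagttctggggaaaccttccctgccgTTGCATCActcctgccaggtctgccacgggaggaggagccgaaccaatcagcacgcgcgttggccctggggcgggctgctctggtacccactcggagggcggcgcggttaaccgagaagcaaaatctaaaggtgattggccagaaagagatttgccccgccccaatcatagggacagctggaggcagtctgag
Slc7a11, chr3:50443614-50443863, minus strand: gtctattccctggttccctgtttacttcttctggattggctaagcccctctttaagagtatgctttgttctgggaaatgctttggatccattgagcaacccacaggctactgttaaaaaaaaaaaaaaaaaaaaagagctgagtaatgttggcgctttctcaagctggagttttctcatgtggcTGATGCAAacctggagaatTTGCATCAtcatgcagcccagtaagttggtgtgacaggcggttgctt
Gclm, chr3:122245307-122245556, plus strand: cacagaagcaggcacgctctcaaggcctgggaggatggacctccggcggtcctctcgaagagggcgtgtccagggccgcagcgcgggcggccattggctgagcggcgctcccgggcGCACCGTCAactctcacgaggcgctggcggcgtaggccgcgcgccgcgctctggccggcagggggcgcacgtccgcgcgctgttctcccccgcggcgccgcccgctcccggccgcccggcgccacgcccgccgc

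Chac1 held TGATGCAA on the strand opposite to the gene, 193 to 186 bases before the start. Slc7a11 held it on both strands, at 66 to 59 and at 47 to 40 bases before the start. Gclm held TGACGGTGC on the opposite strand 134 to 126 bases before the start. Ggct held TGACGTCGC on the opposite strand 174 to 166 bases before its start. It also held TGACGCTGC on its own strand at bases 5 to 13 after the start. Among all 32851 windows of the table, 3.97% held TGATGNAA, 12.4% held TGACNNNGC and 1.79% held TGACGTCA. A match is a description of these letters, and binding was not measured.

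Library totals ran from 32454257 to 37178107 counts, so low values rest on few reads. Levels are given as CPM, counts scaled to a common library size with TMM normalisation. Eif2ak3, the gene of PERK, was lower in every PERK -/- library than in every WT library in 6 of 6 treatments, with 279 to 1337 counts in the PERK -/- libraries. The 8 fibroblast markers summed to 13322 to 38964 CPM. The 4 epithelial markers summed to 0.11 to 0.34 CPM in the WT DMSO libraries, 16.9 to 23.5 CPM in the WT Halofuginone libraries and 7.97 to 10.5 CPM in the WT Halofuginone + Thapsigargin libraries. Of these, Krt8 reached 14.3 CPM and Krt18 8.62 CPM in a library, Cdh1 reached 1.08 CPM, and Epcam had 0 counts in 24 of 36 libraries. The 3 endothelial markers reached 5.06 CPM, the highest values also in WT Halofuginone libraries, and the leukocyte markers reached 3.81 CPM with Cd3e at 0 in all 36. Their part in the halofuginone results was not tested. In bulk samples, fewer cells of a type and less RNA per cell cannot be told apart.

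Chac1 and Cth were called in more of the treatment comparisons than the other 7 genes. Chac1 rose in 9 of the 10 comparisons of a treatment with its control, and Cth rose in 7 and fell in 1. Gsr fell in 5 of the 10 and rose in none of them at an adjusted p under 0.05, while Gclm fell in 5 and rose in 1. Gclc rose in 2 and fell in 3, and Ggct rose in 4. Chac2 rose in 1, Gss rose in 1 and fell in 1, and Cbs fell in 1. "Rose", "fell" and "called" mean an edgeR quasi-likelihood p, adjusted by Benjamini-Hochberg over all 16065 genes of the comparison, under 0.05. Changes are log2 fold changes with a standard error (SE). The SE was the absolute change divided by the square root of the quasi-likelihood F statistic.

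Thapsigargin in WT cells called 6 of the 9 genes, against 47.6% of all tested genes: Chac1, Cth, Gclc, Gclm and Ggct rose and Gsr fell. Without PERK it called 2, Chac1 up and Gss down, against 27.9% of all genes. The response differed between the genotypes for 5 of the 9 genes, all smaller in PERK -/- cells, against 38.1% of all genes. The median log2 change of the 9 genes was 0.67 in WT cells and -0.05 in PERK -/- cells, beside 0.02 and 0.05 over all genes.

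BtdCPU alone raised 3 of the 9 genes in WT cells (Chac1, Cth and Gclc; 22.2% of all genes were called) and 2 in PERK -/- cells (Chac1 and Cth; 3.59% of all genes). None of the 9 differed between genotypes in this response by edgeR, where 0.199% of all genes did. At an unadjusted p under 0.05 the count was 2 (Chac1 and Gclm), beside 1626 of all 16065 genes, and DESeq2 called 0. Halofuginone alone called 6 genes in WT cells, with Chac1, Cth and Ggct up and Gclc, Gclm and Gsr down, where 68.2% of all genes were called. The same treatment called 4 in PERK -/- cells, Chac1 and Cth up and Gclm and Gsr down, against 42.2% of all genes. Of the 9, 4 differed between genotypes in the halofuginone response (35.0% of all genes): Cth, Gclm and Gsr were higher in PERK -/- cells by this measure, and Chac1 lower.

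Added to thapsigargin in WT cells, BtdCPU called 0 of the 9 genes by edgeR, where 2.32% of all genes were called. At an unadjusted p under 0.05 the count was 4, beside 2727 of all 16065 genes, and DESeq2 called 1 (Gclc). Same-numbered libraries of these groups deviated together. With the replicate number as a block, 4 genes were lower: Cth by a log2 change of -0.65, Gclc of -0.32, Gclm of -0.35 and Gsr of -0.36, with edgeR adjusted p of 0.0261, 0.0141, 0.0151 and 0.0135. That block called 2079 of all 16065 genes. In all 3 same-numbered pairs, which hold the libraries behind these calls, each of these 4 genes was lower with BtdCPU. Without the block, 1 gene was called when BtdCPU + Thapsigargin replicate 1 was left out (Gclm, -0.49) and 1 when Thapsigargin replicate 2 was left out (Gclc, -0.42).

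Halofuginone added to thapsigargin in WT cells called 6 genes, Chac1 and Chac2 up and Cth, Gclc, Gclm and Gsr down, against 45.3% of all genes. The median log2 change of the 9 genes was -1.08, beside 0.00 over all genes. That median is the value of Cbs (-1.08 ± 1.03, edgeR adjusted p = 0.415), which has few counts and was not called. The values next to it in order were -1.15 (Gsr) and -0.20 (Gss). The median was -0.71 without Halofuginone + Thapsigargin replicate 3, -0.85 without Thapsigargin replicate 1 and -0.45 without Thapsigargin replicate 3. BtdCPU added to thapsigargin called 5 genes in PERK -/- cells, against 35.6% of all genes: Chac1, Cth, Ggct and Gss rose and Gclm fell. This count was 3 without BtdCPU + Thapsigargin replicate 2 or without Thapsigargin replicate 1. Halofuginone added to thapsigargin called 7 of the 9 in PERK -/- cells (52.7% of all genes), with Chac1, Cth and Ggct up and Cbs, Gclc, Gclm and Gsr down.

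Between genotypes, the change on adding a compound to thapsigargin was unlike for 4 genes with BtdCPU (20.8% of all genes) and 5 with halofuginone (32.7% of all genes), each higher in PERK -/- cells. For BtdCPU these were Chac1, Cth, Gclc and Gss. The count was 2 without WT Thapsigargin replicate 1, WT BtdCPU + Thapsigargin replicate 3 or PERK -/- Thapsigargin replicate 3. For halofuginone they were Chac1, Cth, Gclc, Gclm and Ggct. Between the untreated lines, 4 of the 9 genes differed, against 49.5% of all genes: Gclm, Gss and Gsr were higher in PERK -/- cells and Gclc was lower. Comparisons that share a control group, such as the 3 single treatments against DMSO, are not independent of each other.

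**Figure D1:**
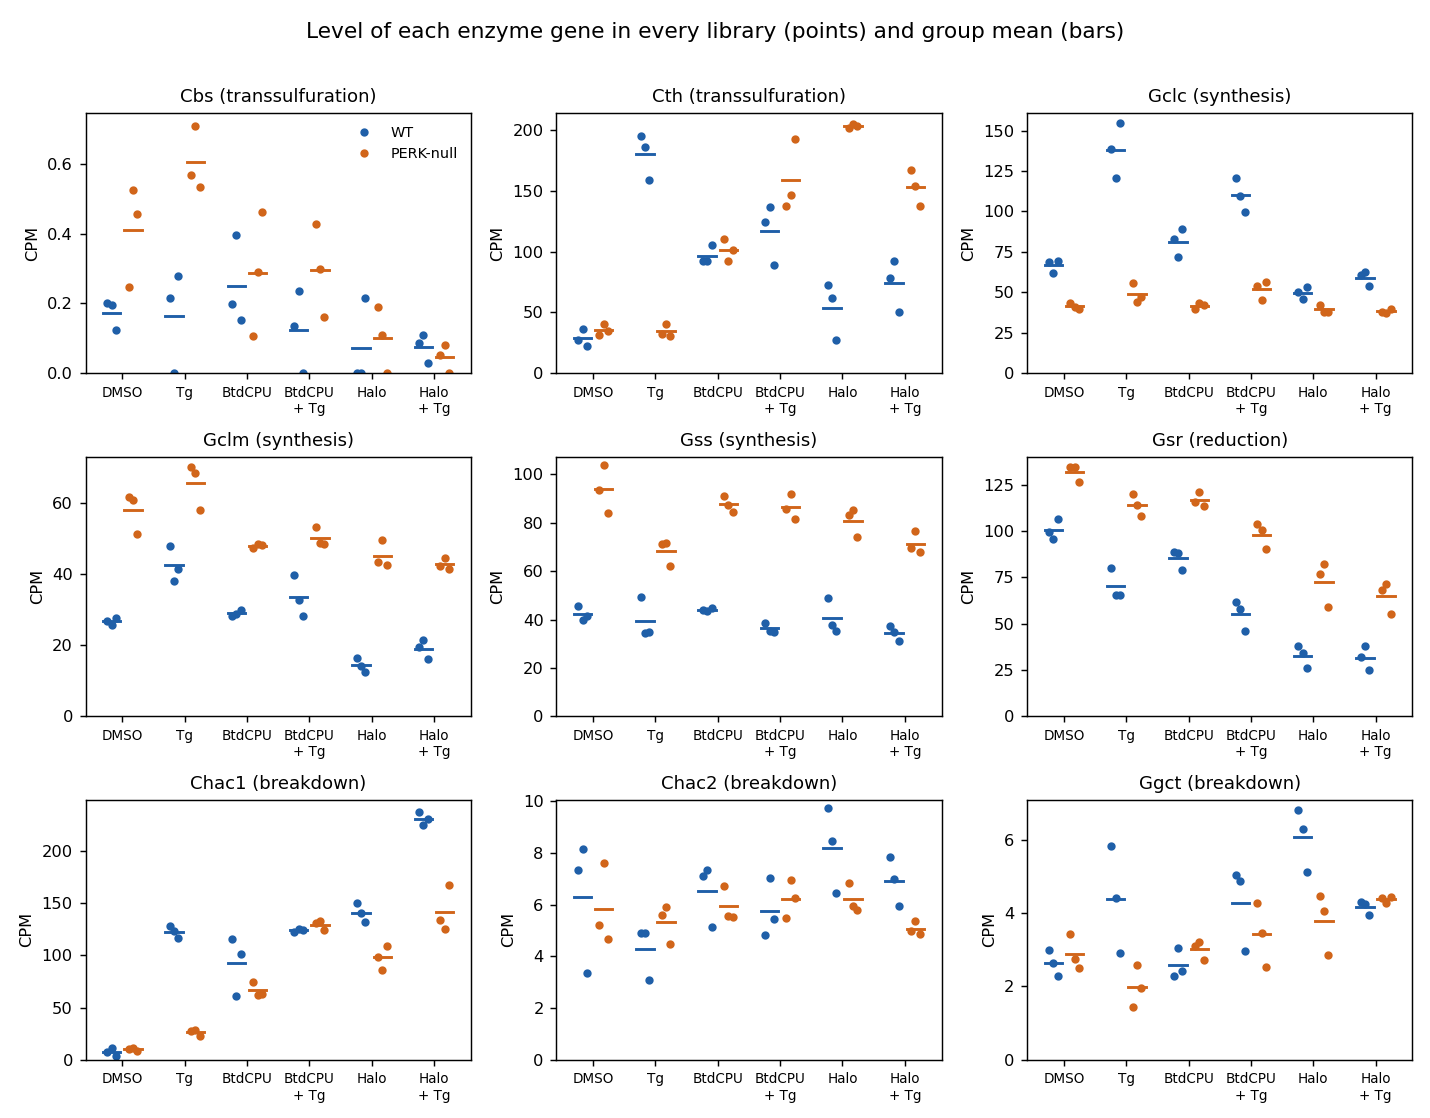
Level of the 9 genes in CPM in every library (points) with the group mean (bars), for WT (blue) and PERK -/- (orange, PERK-null) cells. Halo stands for halofuginone. Cth under thapsigargin sits at 160 to 196 CPM in WT libraries and 30.8 to 40.7 CPM in PERK -/- libraries, and Cbs stays under 1 CPM throughout.

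Cth encodes cystathionine gamma-lyase, the enzyme that releases cysteine in the last step of transsulfuration. In WT cells it stood at 27.7, 36.7 and 22.3 CPM in the DMSO libraries and at 196, 186 and 160 CPM under thapsigargin. The 2 sets did not overlap, and the log2 change was 2.64 ± 0.24 (SE; edgeR adjusted p = 1.31e-10). The PERK -/- DMSO libraries held 31.8, 40.7 and 34.4 CPM and the PERK -/- thapsigargin libraries 31.98, 40.7 and 30.8 CPM. These values interleaved, with a log2 change of -0.05 ± 0.23 (adjusted p = 0.927). The response was lower in PERK -/- cells by a log2 difference of -2.69 ± 0.33 (adjusted p = 8.82e-08).

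BtdCPU alone brought Cth to similar levels in both genotypes. The WT libraries held 92.5, 92.2 and 105 CPM and the PERK -/- libraries 111, 92.8 and 101 CPM, all above every DMSO library of their genotype. The log2 changes were 1.74 ± 0.23 and 1.51 ± 0.23, and their difference was -0.23 ± 0.32 (adjusted p = 0.865). Halofuginone alone gave 72.3, 62.1 and 27.6 CPM in WT libraries and 202, 205 and 204 CPM in PERK -/- libraries. The third WT library lay within the range of the WT DMSO libraries, whereas the PERK -/- libraries held the highest levels of Cth in the series. The rise was 0.90 ± 0.23 in WT cells (adjusted p = 0.000944) and 2.51 ± 0.24 in PERK -/- cells (5.59e-10), a difference of 1.61 ± 0.32 (0.000256).

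On top of thapsigargin, halofuginone moved Cth in opposite directions in the 2 genotypes. BtdCPU raised it in PERK -/- cells, and in WT cells its lower level was called with the block or without the filter on low counts and not otherwise. With halofuginone added, the WT libraries held 78.8, 92.2 and 50.8 CPM, all below every WT thapsigargin library (log2 change -1.29 ± 0.23, adjusted p = 2.68e-05). The PERK -/- libraries held 167, 154 and 138 CPM, all above every PERK -/- thapsigargin library (2.15 ± 0.23, 3.77e-09). The difference between the genotypes was 3.44 ± 0.33 (2.55e-09). With BtdCPU added, the WT libraries held 124, 137 and 89.0 CPM (-0.63 ± 0.22, adjusted p = 0.129 without the block) and the PERK -/- libraries 138, 146 and 193 CPM (2.21 ± 0.24, 1.11e-08). Here the difference was 2.83 ± 0.32 (1.75e-07).

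The group means of Cth spanned 7.05-fold, from 28.9 ± 7.24 CPM (SD, n = 3) in WT DMSO to 204 ± 1.43 CPM in PERK -/- Halofuginone. In the order of the 12 means, 9 of the 11 neighbouring pairs overlapped. The breaks came below PERK -/- Halofuginone and between PERK -/- Halofuginone + Thapsigargin (153 ± 14.7 CPM) and WT BtdCPU + Thapsigargin (117 ± 24.8 CPM). At the low end, PERK -/- Thapsigargin and both DMSO groups did not separate.

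Cbs encodes cystathionine beta-synthase, which starts transsulfuration, and it was close to absent in these cells. Its group means ran from 0.0449 CPM in PERK -/- Halofuginone + Thapsigargin to 0.604 ± 0.0927 CPM (SD, n = 3) in PERK -/- Thapsigargin. The PERK -/- Thapsigargin libraries held 0.569, 0.709 and 0.534 CPM, above all 33 other libraries. All 3 PERK -/- Halofuginone + Thapsigargin libraries were at or under the floor of 3 counts. Cbs was lower there than with thapsigargin alone, by a log2 change of -3.66 ± 0.98 (edgeR adjusted p = 0.00228). The 95% interval of that change ran from -5.59 to -1.73, so its size is poorly known. It stood in PERK -/- DMSO libraries at 0.246, 0.524 and 0.457 CPM and in WT DMSO libraries at 0.200, 0.197 and 0.124 CPM. These sets did not overlap, but the difference of 1.21 ± 0.84 was not called (0.239). For WT halofuginone, Cbs was not called (-1.25 ± 1.05) but was without Halofuginone replicate 3, which leaves libraries at 0 counts only. At this depth most other differences in Cbs were not detectable.

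Gclc, the catalytic subunit of glutamate-cysteine ligase, rose with thapsigargin in WT cells. Its smaller change in PERK -/- cells was called with the replicate block and not in the main fit. The WT libraries held 68.5, 62.1 and 69.4 CPM in DMSO and 139, 121 and 155 CPM with thapsigargin, without overlap. The log2 change was 1.05 ± 0.10 (adjusted p = 9.37e-10). Without PERK they held 43.1, 41.1 and 40.0 CPM and then 55.8, 44.3 and 47.1 CPM. Every treated library was above every control, yet the change of 0.24 ± 0.10 was not called (0.0799). The response was smaller in PERK -/- cells by -0.81 ± 0.15 (5.23e-05).

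Halofuginone lowered Gclc in WT cells, alone and on top of thapsigargin. Alone, the libraries held 50.04, 45.8 and 53.2 CPM (-0.42 ± 0.10, adjusted p = 0.000663). On top of thapsigargin they held 60.9, 62.3 and 53.8 CPM, below every thapsigargin library (-1.23 ± 0.10, 9.52e-11). The change with halofuginone alone was -0.07 ± 0.10 in PERK -/- cells (0.622). On top of thapsigargin the PERK -/- libraries held 37.8, 37.4 and 39.9 CPM (-0.35 ± 0.10, 0.00501). That fall was -0.25 and not called without PERK -/- Thapsigargin replicate 1. The difference between genotypes was 0.87 ± 0.15 on top of thapsigargin (2.43e-05). It was 0.35 ± 0.15 for halofuginone alone (0.0629), which was called at 0.43 or 0.44 without PERK -/- Halofuginone replicate 2 or 3, at 0.41 without WT DMSO replicate 2 and at 0.42 or 0.44 without WT Halofuginone replicate 1 or 3.

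With BtdCPU alone, Gclc in WT cells held 82.8, 71.9 and 89.0 CPM, and the small rise of 0.29 ± 0.10 (adjusted p = 0.0455) was among the least stable calls. It was lost without BtdCPU replicate 1 (0.27) or 3 (0.22) and without DMSO replicate 1 (0.30), 2 (0.24) or 3 (0.32), and under 4 of the other settings tried. BtdCPU added to thapsigargin differed between genotypes by 0.41 ± 0.15 (0.0453). That call was lost without any of 7 libraries: PERK -/- BtdCPU + Thapsigargin replicate 1 (0.42) or 3 (0.39), PERK -/- Thapsigargin replicate 2 (0.39) or 3 (0.42), WT BtdCPU + Thapsigargin replicate 3 (0.38) and WT Thapsigargin replicate 1 (0.41) or 3 (0.32). Over the groups, Gclc was highest in WT Thapsigargin (138 ± 17.0 CPM, SD, n = 3), followed by WT BtdCPU + Thapsigargin (110 ± 10.7 CPM) and WT BtdCPU (81.2 ± 8.63 CPM), none of which overlapped its neighbour. All 6 PERK -/- means lay below the WT DMSO mean of 66.6 ± 4.003 CPM.

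Gclm, the modifier subunit, shared the WT response of Gclc but differed from it in level between genotypes. In WT cells it stood at 26.7, 25.7 and 27.7 CPM in DMSO and at 47.9, 38.1 and 41.4 CPM with thapsigargin (0.67 ± 0.12, adjusted p = 2.32e-05). The PERK -/- DMSO libraries held 61.7, 60.9 and 51.2 CPM, above every WT library of any treatment. With thapsigargin they held 70.1, 68.4 and 57.9 CPM (0.18 ± 0.12, 0.279). The response differed by -0.49 ± 0.17 (0.0188), which was lost without WT Thapsigargin replicate 1 (-0.40), PERK -/- Thapsigargin replicate 3 (-0.41) or PERK -/- DMSO replicate 1 (-0.44).

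Halofuginone lowered Gclm in both genotypes. In WT cells it fell to 16.3, 14.1 and 12.5 CPM with halofuginone alone (-0.90 ± 0.12, adjusted p = 1.11e-07). On top of thapsigargin it fell to 19.5, 21.6 and 16.04 CPM (-1.15 ± 0.12, 3.83e-09). Libraries of PERK -/- cells held 43.4, 49.7 and 42.5 CPM (-0.36 ± 0.12, 0.0136) and, on top of thapsigargin, 42.4, 44.5 and 41.4 CPM (-0.61 ± 0.12, 4.61e-05). The fall with halofuginone alone in PERK -/- cells was not called without PERK -/- Halofuginone replicate 1 (-0.33) or 3 (-0.31) or without PERK -/- DMSO replicate 1 (-0.31) or 2 (-0.32). The genotypes differed by 0.54 ± 0.17 for halofuginone alone (0.0126). They differed by 0.54 ± 0.17 on top of thapsigargin (0.012), a call lost without WT Halofuginone + Thapsigargin replicate 3 (0.43) or WT Thapsigargin replicate 1 (0.45). BtdCPU added to thapsigargin in PERK -/- cells lowered Gclm (-0.39 ± 0.12, 0.00938), which was not called without BtdCPU + Thapsigargin replicate 2 (-0.33) or 3 (-0.32) or Thapsigargin replicate 1 (-0.33) or 2 (-0.31).

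Gss encodes glutathione synthetase, which adds glycine in the last step. Its main feature was a difference in level between the lines: 45.5, 39.9 and 41.6 CPM in WT DMSO libraries and 93.5, 104 and 84.0 CPM in PERK -/- DMSO libraries (1.15 ± 0.12, adjusted p = 1.22e-09). All 6 PERK -/- group means, from 68.2 to 93.7 CPM, were above all 6 WT means, from 34.4 to 44.0 CPM, and the libraries of the lowest PERK -/- group did not overlap those of the highest WT group. In WT cells no treatment changed Gss at an adjusted p under 0.05, although thapsigargin did without Thapsigargin replicate 1 (-0.29). Thapsigargin lowered it in PERK -/- cells to 71.0, 71.6 and 62.0 CPM (-0.46 ± 0.12, 0.00311). With BtdCPU added it stood at 85.5, 91.8 and 81.4 CPM (0.34 ± 0.12, 0.0225), a rise lost without BtdCPU + Thapsigargin replicate 2 (0.33) or Thapsigargin replicate 3 (0.31). In the GENCODE M21 annotation, 117 of the 1963 exon bases of Gss lie opposite an antisense transcript, Gssos2, and whether the counting used strand is not given in the sources used here.

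The genotypes differed in the Gss response to thapsigargin by -0.36 ± 0.17 (adjusted p = 0.0892), called without WT Thapsigargin replicate 2 (-0.45) or 3 (-0.44). They differed in the change on adding BtdCPU by 0.46 ± 0.17 (0.0466). That call was lost without WT Thapsigargin replicate 1 (0.27), WT BtdCPU + Thapsigargin replicate 2 (0.49) or 3 (0.47), PERK -/- Thapsigargin replicate 1 (0.49) or 3 (0.44), or PERK -/- BtdCPU + Thapsigargin replicate 2 (0.46).

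Gsr encodes glutathione reductase, which uses NADPH to reduce oxidised glutathione. In WT cells it stood at 99.8, 95.8 and 106 CPM in DMSO and fell with thapsigargin to 79.9, 65.6 and 65.6 CPM (-0.52 ± 0.14, adjusted p = 0.00241). With halofuginone alone it fell to 38.0, 34.2 and 26.1 CPM (-1.62 ± 0.14, 1.29e-11), and with halofuginone on top of thapsigargin to 32.3, 37.8 and 25.0 CPM (-1.15 ± 0.14, 6.39e-08). None of these sets overlapped its control. The epithelial markers given above were also highest in these halofuginone libraries.

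Gsr in PERK -/- cells stood at 135, 135 and 127 CPM in DMSO and at 120, 114 and 108 CPM with thapsigargin (-0.21 ± 0.14, adjusted p = 0.272). Halofuginone alone lowered it to 77.1, 82.1 and 58.9 CPM (-0.86 ± 0.14, 5.99e-06). With thapsigargin it was lowered to 68.4, 71.4 and 55.3 CPM (-0.81 ± 0.14, 8.25e-06). The fall with halofuginone alone was smaller in PERK -/- cells by 0.76 ± 0.19 (0.00279). The difference on top of thapsigargin was 0.34 ± 0.19 (0.186). Untreated PERK -/- cells held more Gsr by 0.39 ± 0.14 (0.0172), which was 0.36 and not called without WT DMSO replicate 2.

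**Figure D2:**
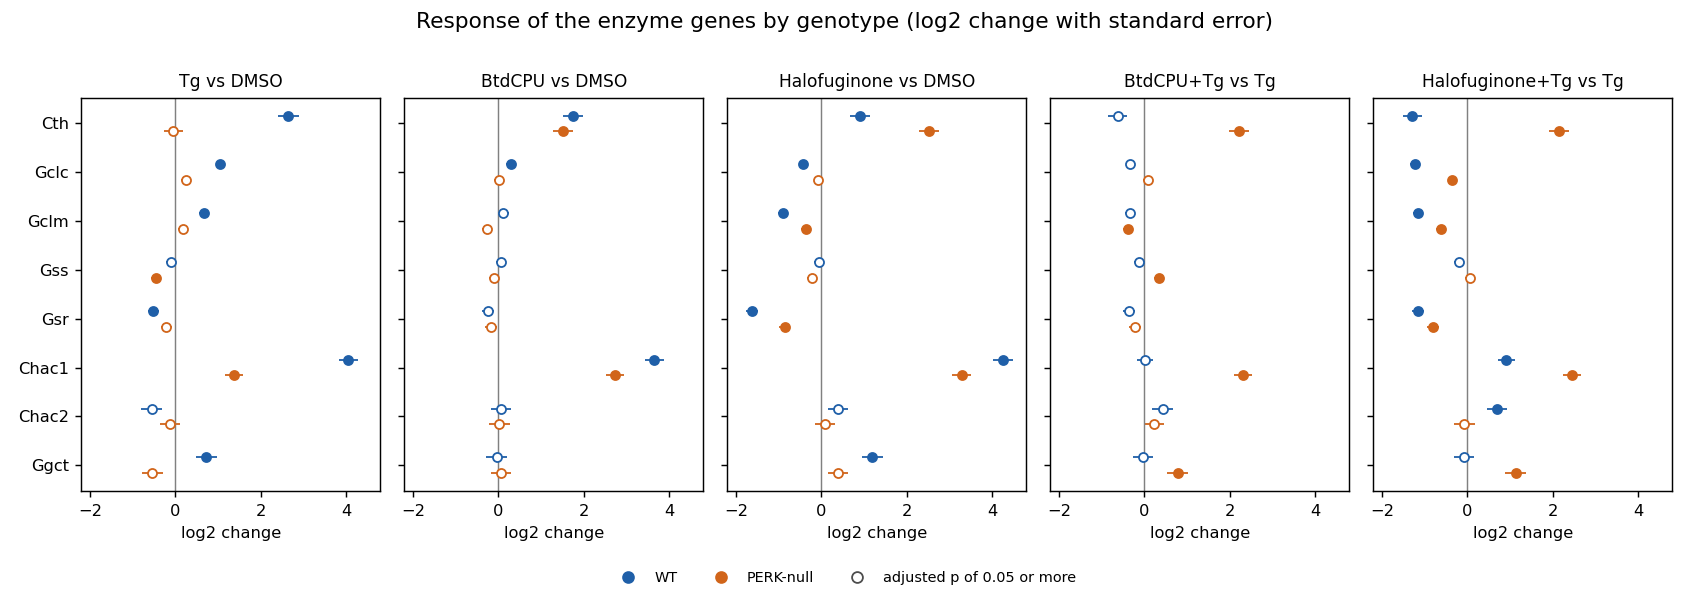
Log2 change (horizontal axis) with its standard error for 8 of the 9 genes under each treatment, in WT (blue) and PERK -/- (orange, PERK-null) cells, with open points for an adjusted p of 0.05 or more. Cbs is not drawn. Under thapsigargin Cth stands at 2.64 in WT cells and at -0.05 in PERK -/- cells, and with halofuginone added to thapsigargin at -1.29 and 2.15.

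Chac1 encodes the glutathione-specific gamma-glutamylcyclotransferase that cleaves glutathione in the cytosol. It had the largest range of the 9 genes, 31.4-fold between group means. In WT DMSO libraries it stood at 7.46, 10.9 and 3.78 CPM and with thapsigargin at 128, 123 and 117 CPM (4.05 ± 0.23, adjusted p = 2.91e-15). It rose in PERK -/- cells from 10.1, 11.4 and 8.66 CPM to 27.7, 28.2 and 22.5 CPM (1.38 ± 0.21, 5.35e-06). The rise was smaller by -2.67 ± 0.30 (1.58e-08), but unlike Cth it was called in PERK -/- cells.

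Both compounds alone raised Chac1 in both genotypes. BtdCPU brought it to 116, 61.1 and 101 CPM in WT libraries (3.65 ± 0.22, adjusted p = 2.19e-13) and to 74.4, 62.0 and 62.8 CPM in PERK -/- libraries (2.72 ± 0.21, 3.29e-10). The second WT library lay apart from the other 2 and below every PERK -/- library. That library was also lowest for Ddit3 (70.9 against 156 and 133 CPM), Trib3 (147 against 313 and 277 CPM) and Slc7a11 (19.4 against 39.0 and 33.8 CPM). Its Cth stood at 92.2 against 92.5 and 105 CPM. For Chac1 the difference between genotypes was -0.92 ± 0.29 (0.199), and it was called at -1.15 without WT BtdCPU replicate 2 and at -1.31 without WT DMSO replicate 2. Halofuginone brought Chac1 to 150, 141 and 132 CPM in WT libraries (4.25 ± 0.23, 3.12e-16) and to 98.4, 86.3 and 109 CPM in PERK -/- libraries (3.28 ± 0.22, 4.72e-13). Here the genotypes differed by -0.97 ± 0.29 (0.0099). Untreated, Chac1 differed by 0.44 ± 0.22 (0.0887), called at 0.83 without WT DMSO replicate 2.

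On top of thapsigargin, Chac1 showed a different order. With halofuginone added it reached 237, 225 and 231 CPM in WT libraries, the highest of all groups and above every thapsigargin library (0.91 ± 0.20, adjusted p = 0.000283). It reached 134, 125 and 167 CPM in PERK -/- libraries (2.44 ± 0.21, 2.05e-11). With BtdCPU added the WT libraries held 122, 125 and 125 CPM, within the range of thapsigargin alone (0.02 ± 0.19, 0.984). The PERK -/- libraries held 131, 133 and 124 CPM (2.31 ± 0.21, 3.99e-10), so the 2 genotypes overlapped. The change differed between genotypes by 2.29 ± 0.28 with BtdCPU (5.18e-07) and by 1.53 ± 0.28 with halofuginone (6.44e-05).

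Halofuginone on top of thapsigargin therefore moved Chac1 and Cth in opposite directions in WT cells, Chac1 up and Cth down. It raised both in PERK -/- cells. In each genotype the synthesis subunits Gclc and Gclm were lower in the same libraries.

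Chac2 encodes a paralogue of CHAC1 with the same reaction and is known as a constitutive enzyme. Its group means spanned only 1.91-fold, from 4.29 ± 1.04 CPM (SD, n = 3) in WT Thapsigargin to 8.204 ± 1.65 CPM in WT Halofuginone, and all 11 neighbouring pairs in the order of means overlapped. It was called in 1 comparison. With halofuginone on top of thapsigargin the WT libraries held 7.85, 6.99 and 5.95 CPM, against 4.89, 4.89 and 3.08 CPM with thapsigargin alone (0.69 ± 0.24, adjusted p = 0.0182). That rise was lost without Halofuginone + Thapsigargin replicate 1 (0.59) or Thapsigargin replicate 3 (0.50). With thapsigargin in WT cells Chac2 was not called (-0.55 ± 0.24, 0.057) but was without DMSO replicate 3 (-0.86) or Thapsigargin replicate 2 (-0.71), and with halofuginone alone (0.38 ± 0.23, 0.149) it was called without DMSO replicate 2 (0.61). Chac2 lies within Asb3 on the opposite strand and shares none of its exon bases with it in GENCODE M21.

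Ggct encodes gamma-glutamylcyclotransferase, which acts on gamma-glutamyl amino acids and yields 5-oxoproline. After Cbs it had the fewest counts, at 53 to 220 counts in a library. In WT cells it stood at 3.00, 2.64 and 2.29 CPM in DMSO and at 6.81, 6.27 and 5.12 CPM with halofuginone, without overlap (1.20 ± 0.24, adjusted p = 5.58e-05). With thapsigargin it stood at 5.82, 4.40 and 2.91 CPM, and the third library lay within the DMSO range (0.72 ± 0.24, 0.0138). This call was lost without Thapsigargin replicate 1 (0.47) or DMSO replicate 3 (0.63). Thapsigargin in PERK -/- cells gave 1.44, 2.59 and 1.95 CPM against 3.41, 2.76 and 2.50 CPM in DMSO (-0.54 ± 0.25, 0.106), called without Thapsigargin replicate 2 (-0.82). The genotypes differed in this response by -1.26 ± 0.34 (0.00406).

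Adding a compound to thapsigargin raised Ggct in PERK -/- cells, to 4.39, 4.28 and 4.42 CPM with halofuginone (1.13 ± 0.24, adjusted p = 0.000219) and to 4.28, 3.46 and 2.54 CPM with BtdCPU (0.78 ± 0.24, 0.0124). The BtdCPU rise was lost without BtdCPU + Thapsigargin replicate 1 (0.63) or Thapsigargin replicate 1 (0.59). In WT cells the corresponding changes were -0.07 ± 0.23 (0.829) and -0.03 ± 0.23 (0.974). The difference between genotypes was 1.20 ± 0.34 for halofuginone (0.006). For BtdCPU it was 0.81 ± 0.34 (0.0887), called without PERK -/- BtdCPU + Thapsigargin replicate 3 (1.03), PERK -/- Thapsigargin replicate 2 (1.09) or WT Thapsigargin replicate 3 (1.04).

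To set synthesis against breakdown, the log2 CPM of Cbs, Cth, Gclc, Gclm and Gss was averaged in each library, likewise that of Chac1, Chac2 and Ggct, and the mean of the WT DMSO libraries was subtracted from each. These scores describe the libraries and were not tested. Breakdown was highest in WT Halofuginone (2.00 ± 0.20, SD, n = 3) and WT Halofuginone + Thapsigargin (1.99 ± 0.09). The synthesis score there was -0.37 ± 0.12 and -0.10 ± 0.28, the lowest 2 means of the series when Cbs is included. Breakdown minus synthesis was therefore widest in these groups, at 2.37 ± 0.26 and 2.09 ± 0.22. In synthesis, the WT Halofuginone + Thapsigargin libraries ran from -0.41 to 0.12 and overlapped those of WT DMSO (-0.12 to 0.06). With thapsigargin alone in WT cells both scores were above the controls, synthesis at 0.77 ± 0.37 and breakdown at 1.46 ± 0.31.

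Synthesis started higher in PERK -/- cells, at 0.58 ± 0.14 in DMSO, and breakdown minus synthesis was below 0 in all 3 DMSO and all 3 thapsigargin libraries (-0.36 ± 0.17 and -0.21 ± 0.13). The WT DMSO libraries, whose mean sets the 0, ran from -0.49 to 0.33 and overlapped these values. It was above 0 in every library of the other PERK -/- groups, from 0.46 ± 0.28 with BtdCPU to 1.27 ± 0.23 with Halofuginone + Thapsigargin. The breakdown score rests mostly on Chac1, and scores that leave out 1 gene were added after the data were seen. Without Chac1 it was 0.82 in WT Halofuginone, 0.44 in WT Halofuginone + Thapsigargin, 0.10 in WT Thapsigargin and -0.29 in PERK -/- Thapsigargin. It was 0.10 in PERK -/- BtdCPU, 0.21 in PERK -/- BtdCPU + Thapsigargin, 0.29 in PERK -/- Halofuginone and 0.26 in PERK -/- Halofuginone + Thapsigargin. These 4 means lie below the synthesis means of the same groups (0.70, 0.92, 0.60 and 0.36), so breakdown minus synthesis turned below 0 there without Chac1. The same held in WT Thapsigargin (0.10 against 0.77), WT BtdCPU (0.05 against 0.51) and WT BtdCPU + Thapsigargin (0.31 against 0.44). In WT Halofuginone and WT Halofuginone + Thapsigargin the difference stayed above 0 without Chac1. Without Cbs the synthesis score was -0.15 in WT Halofuginone and 0.77 in PERK -/- Halofuginone + Thapsigargin, where it was 0.36 ± 0.17 with Cbs.

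**Figure D3:**
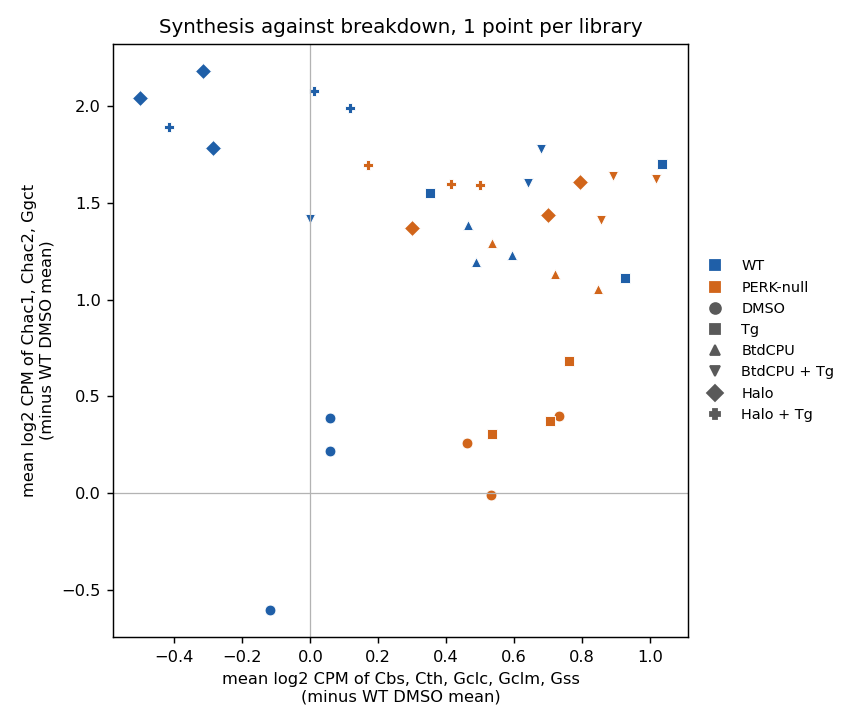
Synthesis score (horizontal axis) against breakdown score (vertical axis), both as mean log2 CPM minus the WT DMSO mean, 1 point for each library, blue for WT, orange for PERK -/- (PERK-null), with symbols for treatments (Halo, halofuginone). The WT halofuginone libraries lie at the upper left, with breakdown scores of 1.79 to 2.18 and synthesis scores of -0.50 to -0.29.

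Levels can be compared between genes only per length, here as CPM per kb of exon from GENCODE M21. In WT DMSO cells Gsr led with 37.6 ± 1.97 CPM per kb (SD, n = 3), followed by Gss with 21.6 ± 1.49, Gclc with 19.5 ± 1.17 and Cth with 15.9 ± 3.99. Gclm (4.78 ± 0.18), Chac2 (4.77 ± 1.96) and Chac1 (4.50 ± 2.17) had overlapping libraries, and Ggct (0.668 ± 0.0896) and Cbs (0.0277 ± 0.0069) were lowest. In WT Thapsigargin, Cth (99.4 ± 10.3) and Chac1 (74.9 ± 3.42) led. In WT Halofuginone + Thapsigargin, Chac1 stood at 141 ± 3.72 and Gclc at 17.2 ± 1.34.

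The ratio of Chac1 to Gclc, 1 enzyme of breakdown over the catalytic subunit of synthesis, was 0.231 per length in WT DMSO and 8.19 in WT Halofuginone + Thapsigargin. It was, in PERK -/- cells, 0.508 in DMSO, 1.11 with thapsigargin and 7.74 with Halofuginone + Thapsigargin. Chac1 and its paralogue Chac2 were near parity in WT DMSO, at a ratio of 0.943 (0.816 to 1.07 over the libraries), and stood at 23.0 with thapsigargin. This ratio was, in PERK -/- cells, 1.38 in DMSO and 3.94 with thapsigargin.

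Gclc and Gclm, the partner subunits, kept a different balance in the 2 lines. The ratio of Gclc to Gclm per length was 4.08 in WT DMSO (3.94 to 4.18 over the libraries) and 1.17 in PERK -/- DMSO (1.10 to 1.28). Over the 6 treatments it ran from 4.08 to 5.66 in WT cells and from 1.17 to 1.69 in PERK -/- cells, so no treatment brought the lines together. The tested differences behind it in DMSO were -0.69 ± 0.10 for Gclc (edgeR adjusted p = 1.94e-06) and 1.12 ± 0.12 for Gclm (2.32e-09). These are differences between 2 lines, and no other line of either genotype was measured.

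**Figure D4:**
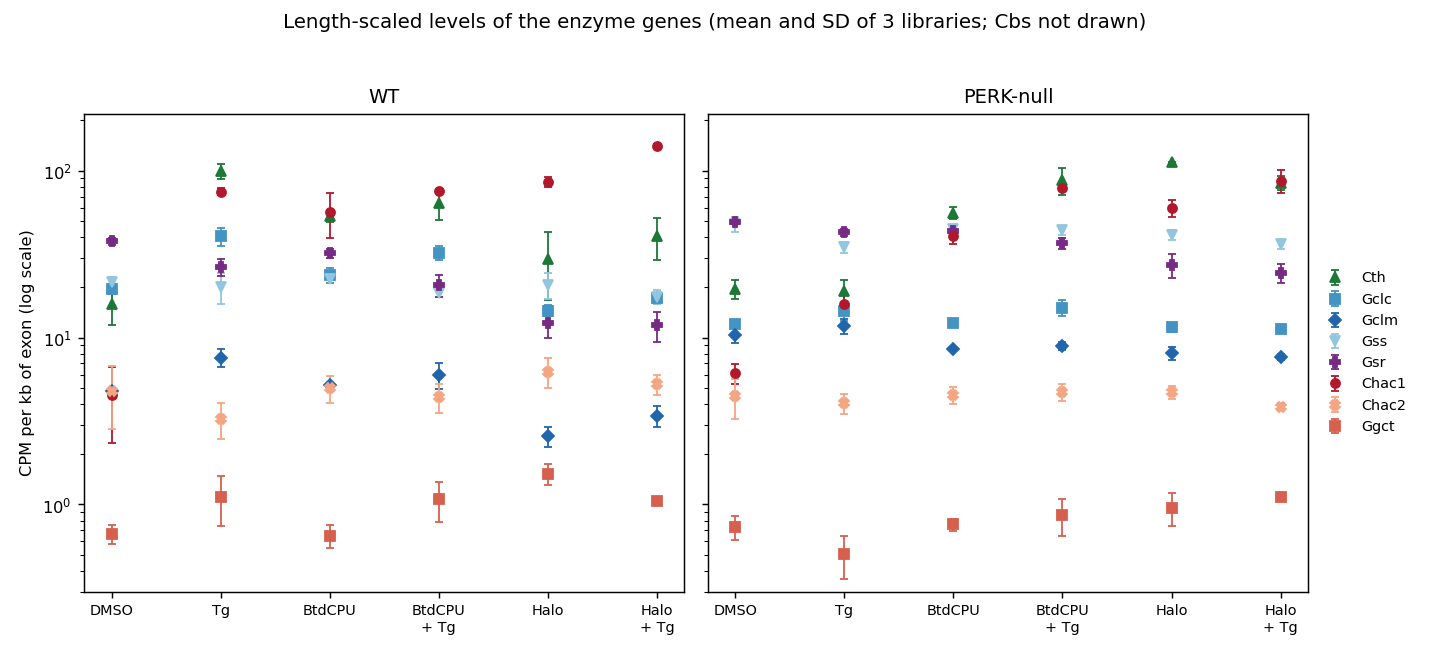
Level per length in CPM per kb of exon on a log axis, as mean and SD of 3 libraries for each treatment, WT on the left and PERK -/- (PERK-null) on the right, with Cbs not drawn. Gclc lies far above Gclm in WT cells (19.5 and 4.78 in DMSO) and close to it in PERK -/- cells (12.1 and 10.4), and Chac1 climbs from 4.50 in WT DMSO to 141 with halofuginone added to thapsigargin.

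Of 69 other genes listed in 6 groups (the methionine cycle, cystine uptake, use of cysteine and sulfide, extracellular cleavage of glutathione and 5-oxoproline, use of glutathione, and its transport), 57 were tested. The subunits of the cystine carrier, Slc7a11 and Slc3a2, both rose in WT and PERK -/- cells with each of thapsigargin, BtdCPU and halofuginone alone, as Chac1 did. With halofuginone on top of thapsigargin, where Chac1 rose in both genotypes, Slc3a2 fell in WT (-0.73 ± 0.15, adjusted p = 0.000266) and PERK -/- cells (-0.48 ± 0.15, 0.00986), and Slc7a11 was not called in WT cells (0.06 ± 0.23) and rose in PERK -/- cells (2.83 ± 0.25). Slc7a11 stood at 1.74, 4.02 and 1.55 CPM in WT DMSO libraries and at 43.9, 54.4 and 47.3 CPM with thapsigargin (4.31 ± 0.28, adjusted p = 1.06e-13). It went in PERK -/- cells from 3.28, 4.08 and 2.93 to 7.29, 7.72 and 4.51 CPM (0.92 ± 0.27, 0.00907). Its heavy chain Slc3a2 rose by 2.79 ± 0.16 and 1.98 ± 0.16 in the 2 genotypes. The difference between genotypes was -3.38 ± 0.38 for Slc7a11 (2.32e-08) and -0.81 ± 0.22 for Slc3a2 (0.00363).

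Genes that use glutathione were mostly lower under halofuginone in WT cells. There 20 of the 25 tested were lower and the other 5 were not called, where 68.2% of all genes were called (5577 higher and 5372 lower). Added to thapsigargin, it left 15 lower and 2 higher (45.3% of all genes called). With halofuginone 9 were lower in PERK -/- cells and the other 16 were not called (42.2% of all genes called). Added to thapsigargin there, it left 12 lower and 1 higher (52.7% of all genes called). The response to halofuginone differed between genotypes for 15 of the 25, each higher in PERK -/- cells, against 35.0% of all genes. The list median was -0.86 in WT cells and -0.29 in PERK -/- cells, beside 0.00 over all genes in each. Several of these genes belong to families of close paralogues, such as the mu-class glutathione S-transferases, among which the counting could have split reads.

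With thapsigargin, 11 of the 25 were lower in WT cells and 2 higher, a share called near the 47.6% of all genes. Of the same 25, 2 were lower and 5 higher in PERK -/- cells, near the 27.9% of all genes. Among the 9 tested genes that use cysteine and sulfide, 7 fell and 1 rose with halofuginone in WT cells (68.2% of all genes called), and 5 fell and 1 rose in PERK -/- cells (42.2%). The largest changes in WT cells were in Tst (-2.71 ± 0.33), a thiosulfate sulfurtransferase, and Sqrdl (-2.43 ± 0.15), the sulfide:quinone oxidoreductase of mitochondria. In the methionine cycle, Mat2a, which makes S-adenosylmethionine, fell with halofuginone, with a log2 change of -1.65 ± 0.27 in WT cells and -1.32 ± 0.27 in PERK -/- cells. It also fell with thapsigargin (-0.77 ± 0.26 and -1.36 ± 0.27). Outside the cell, Anpep, an aminopeptidase, fell with thapsigargin in WT cells (-3.35 ± 0.45) and rose in PERK -/- cells (1.23 ± 0.32). Ggt1, the gamma-glutamyltransferase that opens extracellular glutathione, did not pass the filter on low counts.

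Across all 57, halofuginone called 47 in WT cells, of which 39 fell (68.2% of all genes called), and 26 in PERK -/- cells, of which 20 fell (42.2%). Thapsigargin called 33 (12 higher, 21 lower) and 28 (17 higher, 11 lower), against 47.6% and 27.9% of all genes. BtdCPU called 15 (8 higher, 7 lower) and 3 (3 higher), against 22.2% and 3.59%. Added to thapsigargin in WT cells, BtdCPU called 2 (Slc25a39, -0.35 ± 0.09, and Hagh, -0.58 ± 0.15), where it called 33 in PERK -/- cells (15 higher, 18 lower). The shares over all genes were 2.32% and 35.6%. Halofuginone added to thapsigargin called 34 in WT cells, of which 31 fell, and 35 in PERK -/- cells, of which 26 fell, against 45.3% and 52.7% of all genes.

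**Figure D5:**
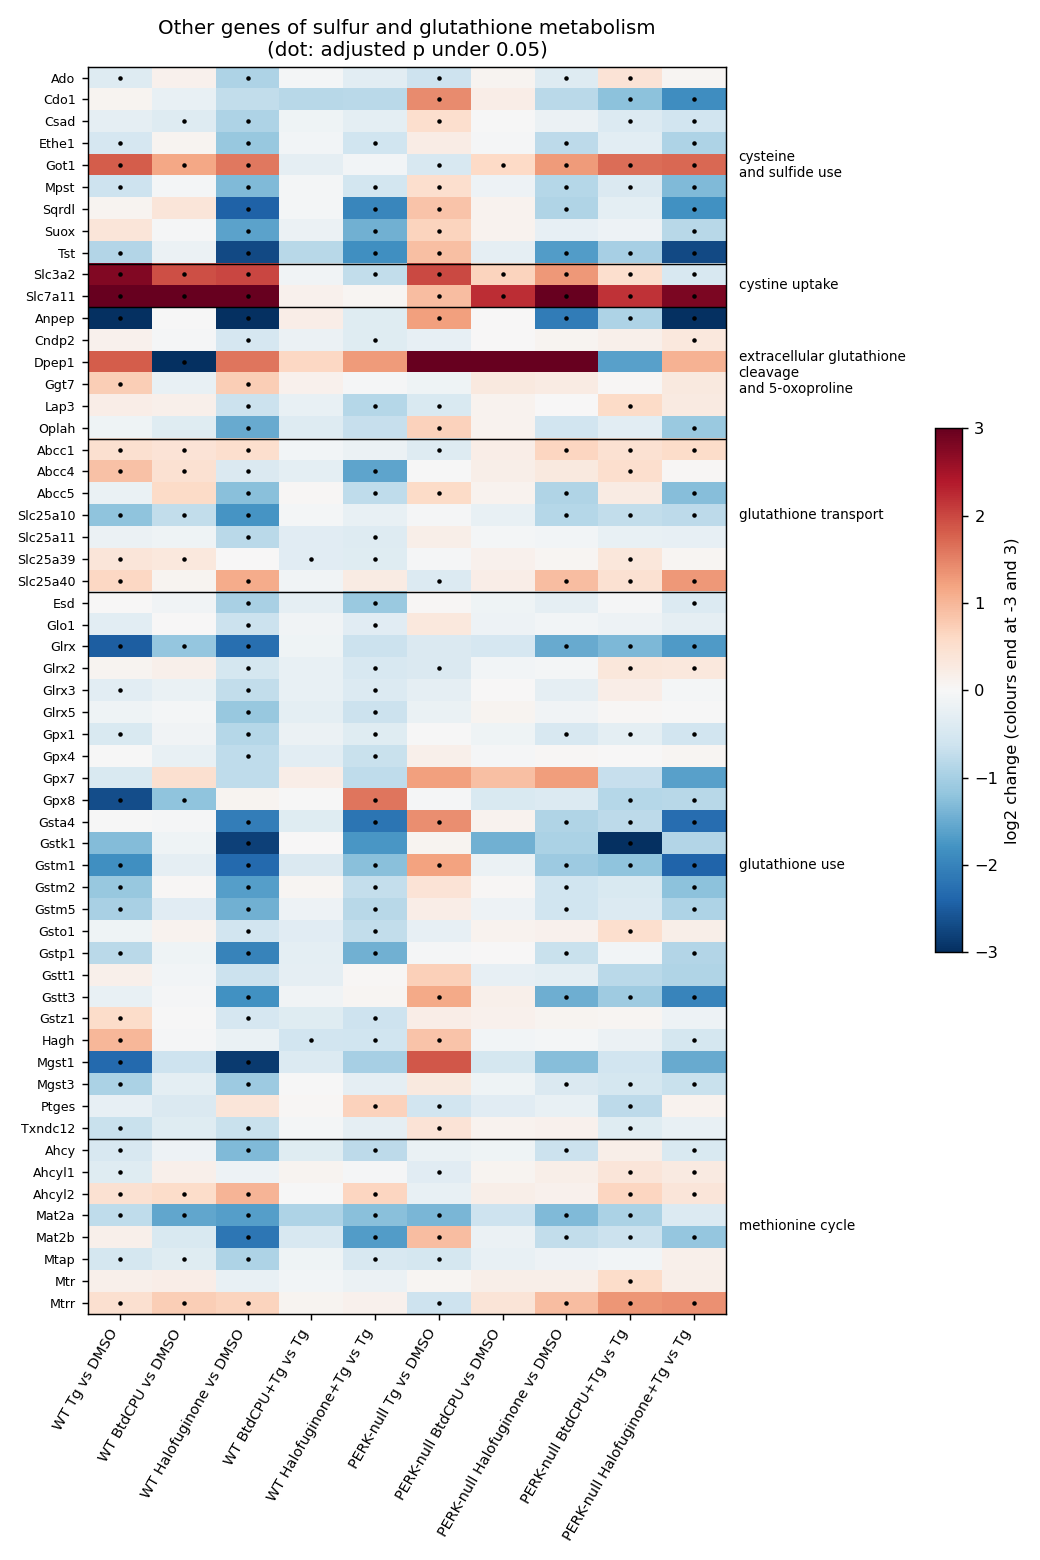
Log2 change (colour, ending at -3 and 3) of the 57 tested genes of the 6 related lists in the 10 comparisons of a treatment with its control, with a dot for an adjusted p under 0.05. The column of WT halofuginone is mostly blue (39 lower, 8 higher), and Slc7a11 and Slc3a2 are red in each single treatment of both genotypes (PERK-null, PERK -/-).

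For each of the 9 genes, the genes with the most similar pattern were sought by Pearson's r over the 12 group means of log2 CPM, where the average log2 CPM of a gene was 2 or more. The points share libraries and were chosen as the highest of many, so r is a description. For Chac1 the nearest were Aars (0.984), Slc7a11 (0.974) and Gadd45a (0.970), and for Cth they were Phf10 (0.985), Zfyve9 (0.969) and Dus2 (0.967). Gclc had Qrich1 (0.958) and Dpagt1 (0.946), and Gclm had Zmpste24 (0.975), Suox (0.974) and Slc27a4 (0.968). Gsr had Eif3k (0.992) and Samd1 (0.986), and Gss had Fbn1 (0.984) and Rbm38 (0.983) after an uncharacterised locus. Ggct had Atg3 (0.959), Eif3j1 (0.939) and Snx8 (0.936), and Chac2 had lower values, led by Bhlhe40 (0.918).

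Among the 9 genes themselves, Gclm and Gsr followed each other most closely (r = 0.816 over the 12 group means), along with Cbs and Gsr (0.816), whose Cbs values rest on few counts. Chac1 and Cth stood at 0.735. Gclc and Gclm, although partner subunits, stood at -0.21, and Gclc and Gss at -0.73, where the level differences between the 2 lines enter. Cbs and Ggct had the most opposed pattern, at -0.88.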

How the data were processed

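RNA from the 36 libraries was extracted with a Zymo kit and made into strand-specific libraries, per the labels' protocols. The authors deposited a table of estimated counts per gene that are not scaled between libraries. The submitters' processing notes name DESeq and the build GRCm39 without a role, and an aligner or counter is not given in the sources used here. In the deposited counts 0.025 stands for 0, in 50.6% of values. Fractions make up 2.69% of the rest.

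From these, 27 entries named by a date (0.206% to 0.278% of a library) were left out, 39 symbols on 86 entries were summed, and counts were rounded. Any 2 libraries of a group differed by a chi-square of at least 9.06 per degree of freedom, so none was a copy. In edgeR 4.0.16 (R 4.3.3), filterByExpr by group left 16065 genes. TMM scaling and a robust quasi-likelihood fit of 12 group means were used. The common dispersion was 0.0199, with 24 degrees of freedom left. Of 16 contrasts, 5 were interactions (the PERK -/- response minus the WT response). Log2 CPM used a prior count of 2. The fit was also run on simulated counts, drawn with the same spread for all genes and with unpaired libraries. That run therefore does not show its error rate on these data. The floor was 3 counts in each library of a group, and it covers counting error only.

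The 9 genes and all lists were chosen with earlier results of these data known. Other genes are named by rule: in a list, at most the 2 called genes with the largest change in the comparison described, with Slc7a11, Slc3a2, Mat2a, Ggt1, Ggt7 and Oplah allowed throughout; for each of the 9, the 3 genes of most similar pattern (some are not reported here); Eif2ak3 as a check; and Atf4, Ddit3, Trib3, Nfe2l2, Nqo1, Hmox1, Txnrd1 and Srxn1 as readouts. Exon lengths came from GENCODE M21 (GRCm38) and promoter windows from RefSeq (GRCm38.p6). No coordinates of the files' build were used.

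The replicate numbers come from the labels. Same-numbered libraries deviated together, with every correlation over 0.1, in WT BtdCPU + Thapsigargin against Thapsigargin (0.16 to 0.34) and WT Halofuginone + Thapsigargin against Thapsigargin (0.16 to 0.31). Blocked values are given beside a result only there. In the 3 WT single treatments against DMSO the correlations ran from 0.04 to 0.29. The limit of 0.1 does not show that libraries of the other comparisons were unpaired. Alternatives were DESeq2 1.42.0, RLE size factors, library size only, no filter, a fit of the compared groups only, the replicate block and leaving out each library.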

Additional observations from a re-analysis of the deposited data

Results flagged for a closer look

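The response of a gene was marked for a closer look where it differed between PERK -/- and WT cells by the edgeR interaction test at an adjusted p under 0.05. Each value is the log2 change in PERK -/- cells minus that in WT cells. For thapsigargin these were Chac1 (-2.67), Cth (-2.69), Ggct (-1.26), Gclc (-0.81) and Gclm (-0.49). For halofuginone alone they were Cth (1.61), Gsr (0.76), Gclm (0.54) and Chac1 (-0.97). For BtdCPU added to thapsigargin they were Cth (2.83), Chac1 (2.29), Gss (0.46) and Gclc (0.41). For halofuginone added to thapsigargin they were Cth (3.44), Chac1 (1.53), Ggct (1.20), Gclc (0.87) and Gclm (0.54). Cth appears in all 4 lists, and in the 2 combinations its change had opposite signs in the 2 genotypes. With BtdCPU added, its WT change (-0.63 ± 0.22, edgeR adjusted p = 0.129) was called only with the replicate block or without the filter on low counts. The thapsigargin libraries serve in 3 of the 4 contrasts, which are therefore not independent. Whether the line or the deletion of PERK underlies a difference cannot be told apart here. Groups of 3 libraries are too small for a test of outlying libraries.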

How the results depend on the processing

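Of the 63 calls on single genes (9 genes in 16 contrasts), 50 kept their call under every alternative, 13 lost it under at least 1 and no called change reversed its direction. Of the 81 results not called, 22 gained a call under at least 1 alternative. All calls lost when leaving out a library are named in the report. Over all genes, counts moved by more than 1.5 times in 4 contrasts. With WT BtdCPU, 3571 genes became 835 with the compared groups only and 5534 with the replicate block, and 1780 to 5062 when a library was left out (BtdCPU replicate 1 or 3 and DMSO replicate 2). With PERK -/- BtdCPU, 577 became 1265 and 1577, and 326 to 405 (BtdCPU replicate 1 or 3, DMSO replicate 1 or 2). With WT BtdCPU + Thapsigargin against Thapsigargin, 372 became 23 and 2079, 702 with DESeq2 and 813 without the filter, and 41 to 331 (BtdCPU + Thapsigargin replicate 3, Thapsigargin replicate 1 or 3). The genotype difference for BtdCPU went from 32 to 2 and 587, 131 and 314, and 14 to 845 (each WT BtdCPU replicate, WT DMSO replicate 1 and PERK -/- BtdCPU replicate 2).

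Among the 9 genes, the count for WT BtdCPU + Thapsigargin went from 0 to 1 with DESeq2, 1 without the filter (Cth), 4 with the block, and 0 to 1 when a library was left out. The genotype difference for BtdCPU went from 0 to 1 without the filter (Chac1, -0.91) and 0 to 1 when a library was left out. That for BtdCPU added to thapsigargin went from 4 to 2 with library size only and 2 with the compared groups only, and to between 2 and 4. PERK -/- BtdCPU + Thapsigargin went from 5 to between 3 and 4 when a library was left out. PERK -/- Thapsigargin went from 2 to 4 with the replicate block (Gclc and Ggct). Same-numbered libraries correlated there at 0.07, 0.10 and 0.17, so a weaker pairing is possible. In the comparisons with every such correlation over 0.1, the block changed no other call on the 9 genes. Scaling by library size only moved the median of all genes by -0.11 for WT halofuginone and by 0.10 for its genotype difference. The share of called genes that were higher moved from 58.1% to 45.1% for WT BtdCPU, from 55.9% to 80.7% for WT BtdCPU + Thapsigargin and from 51.6% to 41.4% for the genotype difference in the latter. Fits of the compared groups only left out Cbs in 8 contrasts. Depth limits Cbs and, less so, Ggct and Chac2. The causes of these shifts were not tested.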

Other observations

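Genes that NRF2 is known to raise differed in both directions in the untreated PERK -/- line. Nfe2l2, the gene of NRF2, was itself lower there, with a log2 difference of -1.20 ± 0.09 (SE; edgeR adjusted p = 7.46e-13). Nqo1 (-1.37 ± 0.13) and Txnrd1 (-0.82 ± 0.11) were lower, while Srxn1 (-0.28 ± 0.18) and Hmox1 (0.27 ± 0.16) were not called. In the same comparison Gclm (1.12 ± 0.12) and Gsr (0.39 ± 0.14) were higher and Gclc (-0.69 ± 0.10) was lower.

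Nqo1 and Gclm also parted under thapsigargin. In WT cells Nqo1 fell (-0.43 ± 0.13) where Gclm rose by 0.67 ± 0.12, and in PERK -/- cells Nqo1 rose by 0.88 ± 0.13 where Gclm was not called (0.18 ± 0.12). Hmox1, which makes heme oxygenase, rose by 3.16 ± 0.18 in WT cells and 0.98 ± 0.16 in PERK -/- cells. With halofuginone on top of thapsigargin in WT cells Hmox1 fell (-2.62 ± 0.17), along with Gclc and Gclm, while Chac1 rose. Ddit3 and Trib3, known products of the same eIF2 alpha pathway, rose in PERK -/- cells with thapsigargin by 1.20 ± 0.21 and 1.56 ± 0.28. Chac1 rose by 1.38 ± 0.21 there, and Cth stood at -0.05 ± 0.23.

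Within the WT groups, replicate 3 was the lowest library for Cth in 5 of 6 treatments and for Chac2 in 5 of 6. What sets these libraries apart was not tested, and the labels name no batch.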
